A study of Mus musculus with 4 samples.

Results

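The 33 genes described here mark microglia, the resident macrophages of brain tissue (29 genes), and the border macrophages of meninges and perivascular spaces (4 genes). They were taken as a list of symbols and found by Ensembl identifier in a table of 55414 genes. All 33 were present, and all 33 passed the filter on low counts, so none was lost before testing. The table holds raw read counts of 4 bulk messenger RNA sequencing libraries, 2 from wild-type (WT) and 2 from Stra8 knockout (Stra8-KO, here KO) mice. Tissue is labelled brain. According to the design text, animals of both genotypes carry the pStra8-GFP reporter (green fluorescent protein under the Stra8 promoter), and cells positive for it were sorted from hippocampi. The sources used here give no age, sex, number of animals or pooling. They do not say whether 2 libraries of a genotype are separate animals, and p-values therefore measure the spread between these libraries, which may be technical. The question asked is how the transcriptome of such cells differs without Stra8.

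Library totals ranged from 71097417 to 82172740 reads. Stra8 itself had 1 to 7 reads in each library, so its counts do not check the genotype labels. Markers of cerebellum and of choroid plexus were present in every library and differed between genotypes. All 10 cerebellar markers and 7 of 10 choroid plexus markers were called lower in KO, with medians of -0.74 and -0.44 on the log2 scale (edgeR quasi-likelihood test, adjusted p under 0.05). Summed, the cerebellar markers held 592.9 to 598.8 CPM in WT and 406.0 to 411.1 CPM in KO, and the choroid plexus markers 656.2 to 659.9 and 453.1 to 461.1 CPM. The neuronal marker Snap25 stood at 1952.5 to 1979 CPM, the reads of a gene relative to the scaled library total. The 29 microglial genes together took 490.9 to 504.8 CPM of each library, and the 4 border macrophage genes 12.9 to 13.5 CPM. Whether the libraries are sorted hippocampal cells cannot be told from the counts, so a level below is that of the whole library. What part the difference in regional make-up had in the values below was not tested. In bulk samples fewer cells of a type and less RNA per cell cannot be told apart.

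Microglia arise from yolk sac progenitors and live on signalling through the receptor CSF1R, with the transcription factor PU.1 setting the lineage. In healthy tissue they survey synapses with fine processes, read nucleotides released by other cells through P2Y receptors, hear neurons through the fractalkine receptor CX3CR1 and make the C1q chains that tag material for uptake. Receptors such as TREM2 signal through the adaptor TYROBP, whose tail carries an immunoreceptor tyrosine-based activation motif (ITAM). Border macrophages are relatives outside the parenchyma that carry scavenger and mannose receptors.

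No gene of the list was called between genotypes. Of 33 members 0 were higher and 0 lower in KO at an edgeR adjusted p under 0.05, where 3.35% of all 21592 tested genes were called higher and 3.19% lower. Values after ± are standard errors of the fit. At an unadjusted p under 0.05 edgeR had 5 members, and 17.4% of all tested genes. DESeq2 called 0 members, where 4.65% of all tested genes were called, and gave Pf4 no adjusted p. Genes without an adjusted p are counted as not called in that share. In limma-trend 1 member was called, Olfml3 (6.61% of all genes). The median log2 fold change, KO over WT, was 0.025 over the members and -0.00038 over all tested genes. Folds ran from 0.842 for Fcgr3 to 1.35 for Pf4. The 95% interval of the fold lay within 1.5-fold in either direction for 32 of the 33 genes and within 1.2-fold for 19. Pf4 was the exception at 1.5-fold, with an interval from 0.779 to 2.32. Both KO libraries stood above both WT libraries for 8 members and below them for 3, where 22.8% and 22.9% of all tested genes did so.

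**Figure D1:**
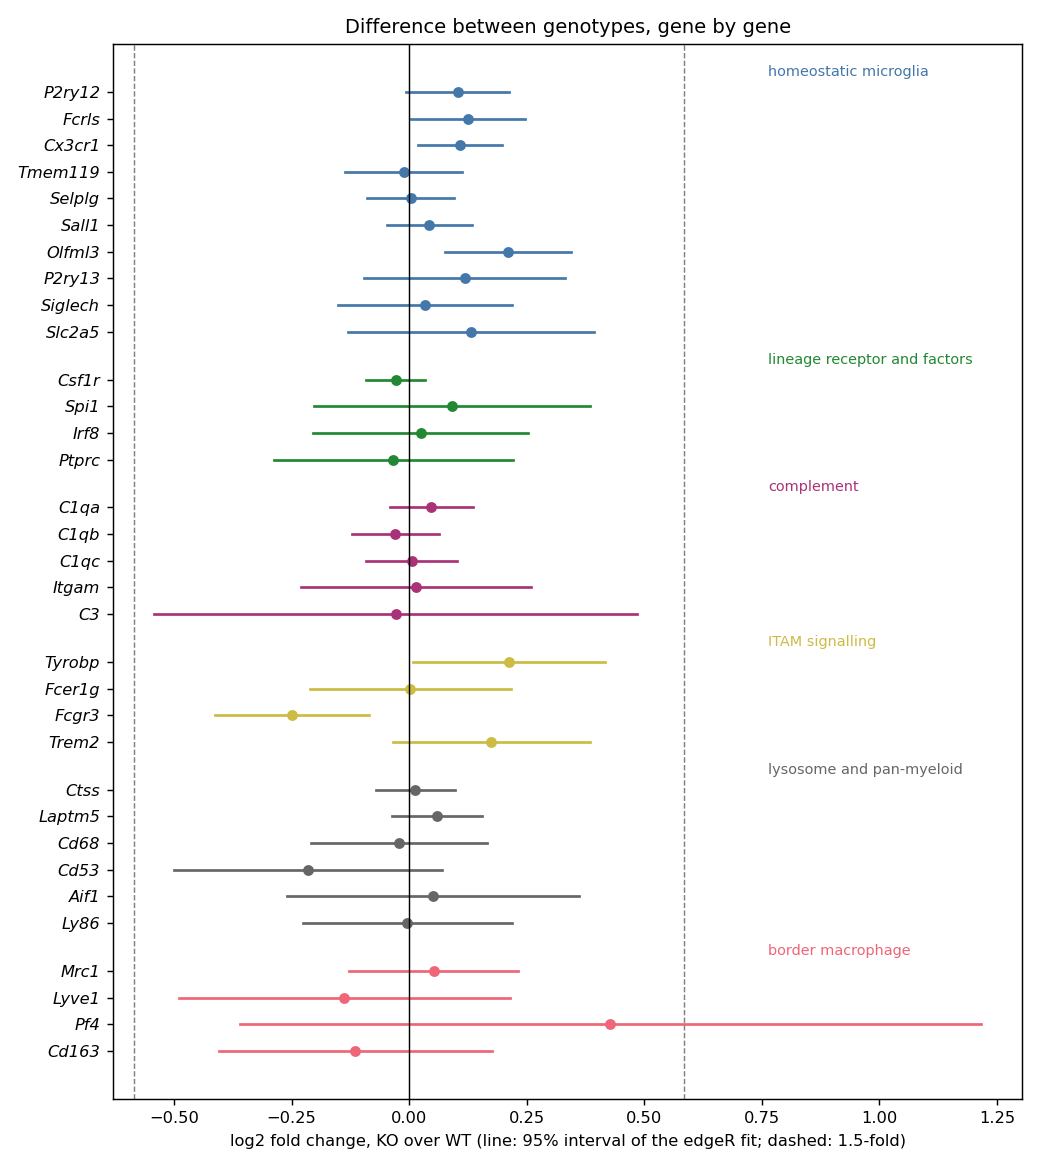
Each point is the log2 fold change of 1 gene, KO over WT, and each line its 95% interval from the edgeR fit (2 libraries per genotype); dashed lines mark 1.5-fold. All intervals except that of Pf4 lie between the dashed lines. For 5 genes the interval leaves out 0 (edgeR unadjusted p under 0.05), where 17.4% of all tested genes had such a p.

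The homeostatic genes, which resting microglia express and which fall away in many activated states, were the largest group of the list. In it 9 of 10 fold changes were positive, 5 genes had both KO libraries above both WT libraries, as did 22.8% of all tested genes, and the median log2 fold change was 0.106. Summed over the group, WT libraries 1 and 2 had 187.0 and 186.1 CPM, and KO libraries 1 and 2 had 197.0 and 196.8 CPM. None of the 10 was called. Over all tested genes the median log2 fold change was -0.00038, and their share of positive values was not counted. A separate list of 32 microglial markers, described below, did not share the rise in the sum. Its sum was 542.96 to 543.6 CPM in WT and lower, 532.9 to 538.05 CPM, in KO. That sum includes Golm1 and Mertk, with means of 42.6 and 47.9 CPM in WT and 34.2 and 42.0 CPM in KO. A sum of the list without them was not taken. Of the fold changes of the whole list 20 were positive and 12 negative.

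Olfml3 encodes a secreted olfactomedin-like protein that in brain is known from microglia. WT libraries 1 and 2 had 16.2 and 16.1 CPM of it, KO libraries 1 and 2 had 17.5 and 19.9 CPM, and values below follow the same order. Both KO values were above WT, and KO library 2 was the higher of them. The log2 fold change was 0.21 (SE 0.065), with an edgeR adjusted p of 0.0552, just past the threshold. The value rested on KO library 2. Without that library the log2 fold change was 0.12 (edgeR adjusted p = 0.543), and without KO library 1 it was 0.30 (edgeR adjusted p = 0.00407).

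Cx3cr1, the receptor for the neuronal chemokine fractalkine, had 33.03 and 33.9 CPM in WT and 37.1 and 35.04 CPM in KO. The genotypes did not overlap, but the gap between the nearest libraries was smaller than the gap between the KO libraries. Its log2 fold change was 0.11 ± 0.044 (adjusted p = 0.170 in edgeR). P2ry12, the ADP receptor by which processes are drawn to injured cells, had 23.1 and 21.9 CPM in WT and 24.7 and 23.7 CPM in KO, its fold change on the log2 scale being 0.10 ± 0.053 (adjusted p = 0.324 in edgeR). Its neighbour in the genome, the related receptor gene P2ry13, had 6.54 and 5.78 CPM in WT and 7.28 and 6.06 CPM in KO, and there the genotypes overlapped.

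Of the other homeostatic genes 2 more stood higher in both KO libraries, as did 22.8% of all tested genes. A negative fold change was found for 1. Fcrls, which encodes an Fc receptor-like scavenger protein, had 17.4 and 17.3 CPM in WT and 19.4 and 18.4 CPM in KO (log2 fold change 0.13 ± 0.059, adjusted p = 0.269 in edgeR). Slc2a5, the fructose transporter GLUT5, had 3.30 and 3.19 CPM in WT and 3.73 and 3.37 CPM in KO (edgeR adjusted p = 0.681). Sall1, a zinc finger factor needed for microglial identity, and Siglech, a sialic acid-binding lectin gene, had log2 fold changes of 0.043 and 0.033 with overlapping genotypes. The membrane protein gene Tmem119 and the selectin ligand gene Selplg are neighbours in the genome. They were the steadiest of the group, with log2 fold changes of -0.011 and 0.0037. Selplg lay between 29.97 and 30.2 CPM in all 4 libraries.

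**Figure D2:**
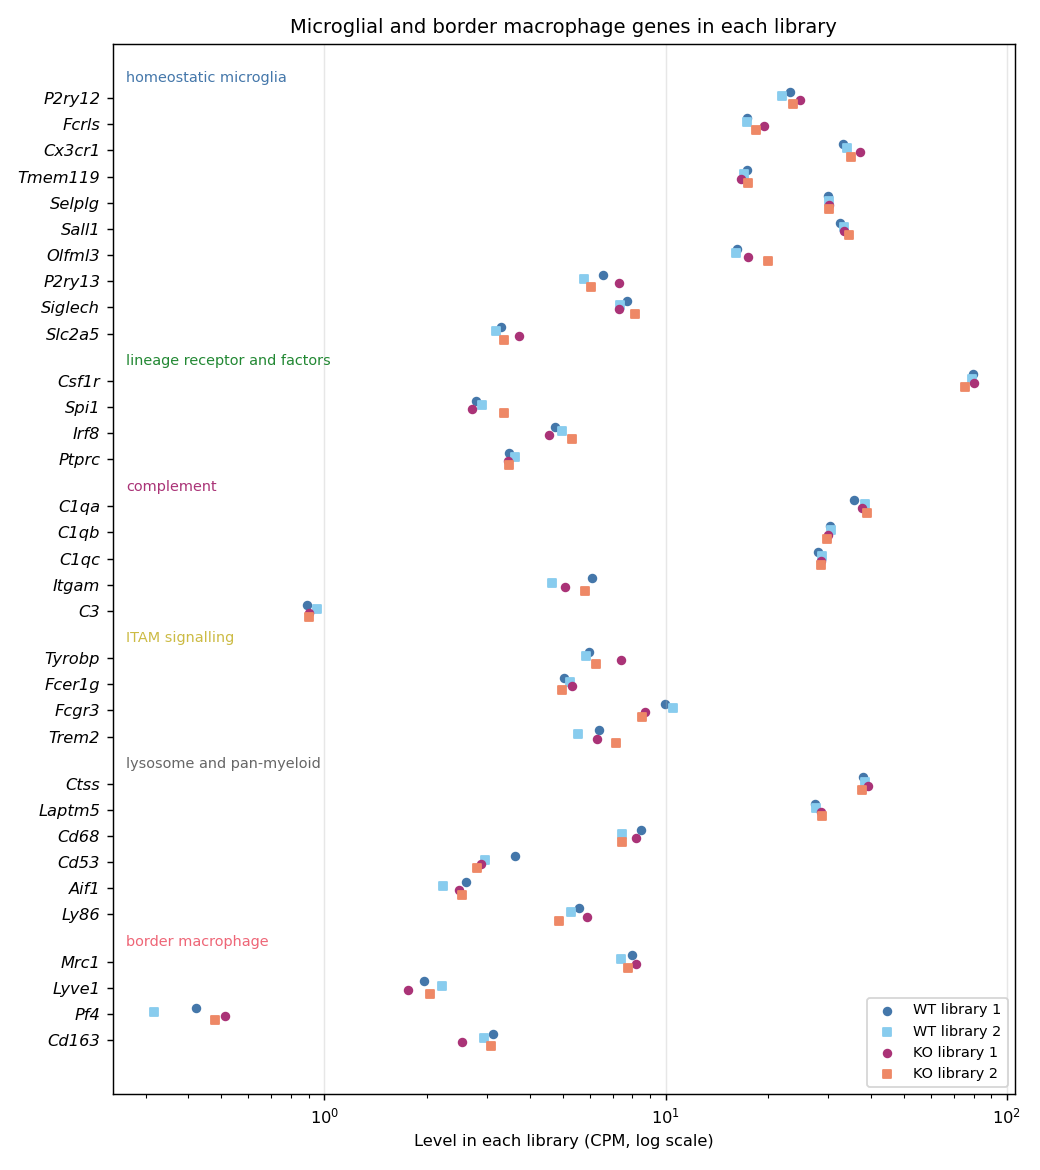
Level of each gene in each of the 4 libraries in CPM on a log scale, grouped by role and ordered within each group by CPM per kb of exon. The 4 points of most genes lie close together. Both KO points stand above both WT points for 8 genes and below for 3, where 22.8% and 22.9% of all tested genes did so. Pf4 and C3 have the lowest levels.

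Genes of the lineage itself did not separate the genotypes. Csf1r, the receptor on which microglial survival depends, was the most abundant member by CPM, with 79.5 and 79.1 CPM in WT and 80.0 and 75.3 CPM in KO. KO library 2 was the lowest and KO library 1 the highest of the 4. The log2 fold change was -0.029 (95% interval -0.092 to 0.034, edgeR adjusted p = 0.717). In the reference gene models 15.1% of Csf1r exon bases overlap Hmgxb3, a gene on the opposite strand with 48.3 to 51.0 CPM, and whether reads were counted by strand is not stated in the sources used here. Spi1 encodes PU.1, and had 2.79 and 2.90 CPM in WT and 2.71 and 3.37 CPM in KO. The interferon regulatory factor gene Irf8, a partner of PU.1, had 4.74 and 4.96 CPM in WT and 4.56 and 5.34 CPM in KO. For both factors the KO libraries bracketed the WT libraries. Ptprc, which encodes the leukocyte phosphatase CD45, lay between 3.46 and 3.62 CPM in all 4.

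The DNA just before the members was searched for letters that the choice of members did not use. PU.1 binds purine-rich sites with the core GAGGAA. In RefSeq promoters (GRCm38.p6, 250 bases before each start) 26 of the 33 members had an entry. C1qa, Csf1r, Lyve1, Selplg, Spi1, Tmem119 and Tyrobp had none. The letters GAGGAA, on either strand, occurred for 15 of the 26 genes, against 25.9% of all genes in the table. The longer letters GAGGAAGT, which contain the core, occurred for 2 of the 26, C1qc and Pf4, against 2.79% of all genes. The letters TATAAA occurred for 5 of the 26, against 14.3%. Such a match is a description of the sequence and not a measured site. The last 100 bases before the start are shown for 4 genes of 3 roles that hold the core within them, with the core or its reverse complement in capitals. They are Fcgr3 (chr1:171059395-171059494, minus strand), C1qb (chr4:136886201-136886300, minus strand), Trem2 (chr17:48346301-48346400, plus strand) and Mrc1 (chr2:14229314-14229413, plus strand), each 5′ to 3′ in the direction of the gene.
Fcgr3: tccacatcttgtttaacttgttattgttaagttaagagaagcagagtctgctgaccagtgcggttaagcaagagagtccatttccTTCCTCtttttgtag
C1qb: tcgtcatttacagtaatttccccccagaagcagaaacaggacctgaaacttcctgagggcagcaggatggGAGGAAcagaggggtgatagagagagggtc
Trem2: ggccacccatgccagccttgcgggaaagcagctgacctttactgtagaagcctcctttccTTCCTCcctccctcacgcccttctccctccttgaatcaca
Mrc1: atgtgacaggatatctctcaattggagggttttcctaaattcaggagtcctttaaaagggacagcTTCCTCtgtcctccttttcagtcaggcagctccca

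The complement genes gave small fold changes, none above 0.047 in size on the log2 scale. C1qa, C1qb and C1qc lie side by side in the genome and encode the chains that assemble into C1q. C1qa had 35.7 and 38.3 CPM in WT and 37.7 and 38.9 CPM in KO (log2 fold change 0.047 ± 0.043, adjusted p = 0.655 in edgeR). C1qb had 30.4 and 30.5 CPM in WT and 29.98 and 29.7 CPM in KO, and C1qc had 27.9 and 28.8 CPM in WT and 28.5 and 28.4 CPM in KO. The C1qb values did not overlap, but the fitted log2 fold change was only -0.029 (edgeR adjusted p = 0.826). Per kb of exon in the reference gene models C1qa was the most abundant of all 33 members, at a mean of 36.2 CPM per kb, with C1qb at 27.7 and C1qc at 14.7 CPM per kb. For C1qc the exons used span 1931 bases, but its longest protein-coding transcript has 1203. For C1qa and C1qb both lengths were equal, at 1040 and 1088 bases. The divisor therefore lowers C1qc beside the other chains on the scale of CPM per kb. The ratio of C1qa to C1qb, on that scale, was 1.23, 1.31, 1.32 and 1.37 in WT 1, WT 2, KO 1 and KO 2.

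The other complement members were lower. C3, the central component of the cascade, which astrocytes and other cells can also make, was the least abundant member per kb, at 0.177 CPM per kb. It had 64 to 78 reads in the 4 libraries, 0.892 and 0.951 CPM in WT and 0.904 and 0.903 CPM in KO, and its 95% interval of the fold ran from 0.687 to 1.40. Itgam, which encodes the alpha chain of the C3 fragment receptor CR3, had 6.09 and 4.66 CPM in WT and 5.07 and 5.80 CPM in KO. There the WT libraries were the highest and the lowest of the 4. In the reference gene models 68.7% of Itgam exon bases overlap Gm49368, a gene on the same strand with 0 reads in all 4 libraries. How reads over both genes were counted is not stated in the sources used here. The Itgam counts may therefore leave out part of its reads.

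Among the ITAM-linked genes Tyrobp and Fcgr3 pointed in opposite directions. Tyrobp, the adaptor shared by TREM2 and other receptors, had 5.97 and 5.86 CPM in WT and 7.41 and 6.27 CPM in KO. Both KO values were above WT, and KO library 1 stood well above the other 3. The log2 fold change was 0.21 ± 0.099 (adjusted p = 0.265 in edgeR), 0.082 without KO library 1 and 0.33 without KO library 2. Trem2, the lipid-sensing receptor, had 6.37 and 5.54 CPM in WT and 6.29 and 7.17 CPM in KO, so here KO library 2 was highest and the genotypes overlapped (log2 fold change 0.17 ± 0.101, adjusted p = 0.405 in edgeR). Fcer1g, the Fc receptor gamma chain, had 5.05 and 5.24 CPM in WT and 5.33 and 4.97 CPM in KO.

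Fcgr3, a low-affinity receptor for immunoglobulin G that signals through this chain, had 9.94 and 10.52 CPM in WT and 8.71 and 8.51 CPM in KO. The genotypes did not overlap, and the gap between them was wider than the spread within either. The log2 fold change was -0.25 (SE 0.079), with an edgeR adjusted p of 0.0635. With library size as the only scaling it was called at -0.26 (edgeR adjusted p = 0.04996), and with a minimum count of 50 at -0.25 (edgeR adjusted p = 0.0469). Of the 50-base stretches of its longest transcript 12.8% also occur in transcripts of other genes, most of all Fcgr2b, so its reads may be divided in ways that the counts do not show. Fcgr2b, the inhibitory receptor of the family, had 3.16 and 3.34 CPM in WT and 2.69 and 3.06 CPM in KO, a log2 fold change of -0.18 ± 0.135 (adjusted p = 0.560 in edgeR). It was looked up because of the shared sequence.

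Of the 6 lysosomal and general myeloid genes 0 were called by edgeR, also at an unadjusted p under 0.05. Over all tested genes 3.35% were called higher, 3.19% were called lower and 17.4% had such an unadjusted p. Of the 6 genes 1 stood higher and 1 lower in both KO libraries, as did 22.8% and 22.9% of all tested genes, and 4 overlapped. Ctss, the lysosomal protease cathepsin S, was the most abundant of them at 28.2 CPM per kb, with 37.99 and 38.3 CPM in WT and 39.3 and 37.7 CPM in KO (log2 fold change 0.013, 95% interval -0.070 to 0.097, edgeR adjusted p = 0.929). Laptm5, a lysosomal membrane protein gene, had 27.4 and 27.6 CPM in WT and 28.5 and 28.8 CPM in KO. These values did not overlap, and the log2 fold change was 0.060 ± 0.046 (adjusted p = 0.581 in edgeR). Cd53, a tetraspanin of leukocytes, had 3.62 and 2.96 CPM in WT and 2.87 and 2.79 CPM in KO, so only WT library 1 stood off (log2 fold change -0.22 ± 0.138, adjusted p = 0.476 in edgeR). Cd68, the phagocyte marker macrosialin, had 8.48 and 7.44 CPM in WT and 8.18 and 7.47 CPM in KO. Aif1 (the calcium-binding protein IBA1 of microglial staining) and Ly86 (the partner of the RP105 receptor) had log2 fold changes of 0.050 and -0.0036, again with overlapping genotypes.

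Border macrophage genes were present at low levels and moved in no common direction. Mrc1, the mannose receptor CD206, had 7.97 and 7.41 CPM in WT and 8.18 and 7.75 CPM in KO (log2 fold change 0.052 ± 0.087, adjusted p = 0.845 in edgeR). Cd163, the scavenger receptor for haemoglobin bound to haptoglobin, had 3.12 and 2.94 CPM in WT and 2.54 and 3.08 CPM in KO. Lyve1, a hyaluronan receptor shared with lymphatic endothelium, had 1.96 and 2.22 CPM in WT and 1.76 and 2.05 CPM in KO. The log2 fold changes of Cd163 and Lyve1 were -0.11 (SE 0.141) and -0.14 (SE 0.170), each with an edgeR adjusted p of 0.769 after rounding, and their genotypes overlapped. With 1 library left out Lyve1 ranged from -0.25 to -0.030.

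Pf4, the chemokine CXCL4 of platelets and some macrophages, had 34 and 26 reads in WT libraries 1 and 2 and 42 and 34 reads in KO libraries 1 and 2. That is 0.421 and 0.317 CPM in WT and 0.513 and 0.480 CPM in KO. Its log2 fold change of 0.43 was the largest of the list, but its SE was 0.381 and its edgeR adjusted p 0.647. The 95% interval of its fold, 0.779 to 2.32, includes 1. The border macrophage sum was 2.74% and 2.63% of the microglial sum in WT and 2.57% and 2.68% in KO, and the genotypes overlapped.

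Differences between libraries of 1 genotype were set beside the difference between genotypes. For 25 of the 33 genes the log2 ratio between the pair of WT libraries or between the pair of KO libraries was larger than the fitted difference between genotypes. Single libraries carry more counting error than a mean of 2, so the ratios are not on equal terms. The comparison also takes the larger of 2 such ratios, which favours the spread within a genotype. The median size of the ratio was 0.066 within WT, 0.083 within KO and 0.050 for KO over WT. KO library 1 was the highest of the 4 for 12 genes and KO library 2 for 10, against 5 for WT library 1 and 6 for WT library 2. Neither of these counts was made over all tested genes. The KO libraries differed most for Spi1, Cd163 and Ly86, with log2 ratios of KO library 2 over KO library 1 of 0.32, 0.28 and -0.27, and the WT libraries for Pf4 and Itgam, with ratios of WT library 2 over WT library 1 of -0.41 and -0.39.

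**Figure D3:**
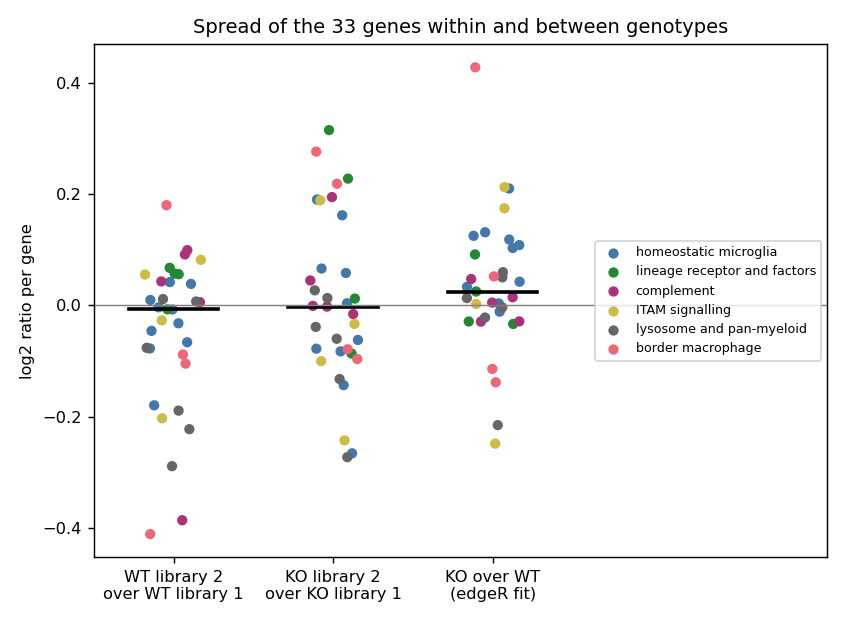
Log2 ratio of each gene between the WT libraries, between the KO libraries and between genotypes (edgeR fit); bars are medians, and horizontal scatter is for display. The 33 points spread about as far within a genotype as between genotypes, with a median between genotypes of 0.025. Ratios of single libraries carry more counting error than the fit.

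Further markers of the same cells included called genes. Of 32 such microglial markers 0 were higher and 2 lower, where 3.35% of all tested genes were called higher and 3.19% lower. Their median log2 fold change was 0.029. Both KO libraries stood above WT for 11 of them and below for 9, where 22.8% and 22.9% of all tested genes did so. Golm1, a Golgi membrane protein gene, fell from 42.7 and 42.6 CPM in WT to 33.8 and 34.7 CPM in KO (log2 fold change -0.32 ± 0.040, adjusted p = 5.56e-06 in edgeR). Mertk, the receptor kinase for the uptake of apoptotic cells, fell from 48.8 and 46.9 CPM to 42.7 and 41.3 CPM (log2 fold change -0.19 ± 0.038, adjusted p = 0.00191 in edgeR). Runx1 and Gpr34, named after their values were seen, did not pass, at -0.50 ± 0.168 (edgeR adjusted p = 0.0829) and 0.30 ± 0.102 (edgeR adjusted p = 0.0920). Mertk is also transcribed by astrocytes, whose 10 markers had 5 called lower and 0 higher in the same fit, with a sum of 5844 to 5855 CPM in WT and 5713 to 5718 CPM in KO. Which cells the Mertk and Golm1 reads came from was not tested. Of 17 further border macrophage markers edgeR called 0, with 3 at an unadjusted p under 0.05 and a median of -0.054. The smallest p among them was that of Ms4a6c, with 0.868 and 1.43 CPM in WT and 0.623 and 0.649 CPM in KO (edgeR adjusted p = 0.0721).

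Of 22 genes that microglia raise around plaques and in degeneration 20 could be tested, 0 were higher and 2 lower, where 3.19% of all tested genes were called lower, and the median was -0.010. Ch25h, the enzyme that makes 25-hydroxycholesterol, fell from 1.02 and 0.805 CPM to 0.440 and 0.423 CPM (log2 fold change -1.07 ± 0.301, adjusted p = 0.0299 in edgeR). That call was lost without WT library 1 (edgeR adjusted p = 0.259), without KO library 1 (0.0788) and without KO library 2 (0.0772). Fth1, the ferritin heavy chain found in all cells, fell from 1682 and 1714 CPM to 1599.6 and 1626 CPM (log2 fold change -0.074, edgeR adjusted p = 0.000286), which did not pass with halved counts at a log2 fold change of -0.075 (edgeR adjusted p = 0.0941). Clec7a had 12 to 32 reads per library, Itgax 16 to 27 and Cst7 2 to 8. Apoe, which astrocytes also make in quantity, lay between 1474 and 1524 CPM.

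Partners of the members in the complement cascade did not shift together. Of 26 listed genes 21 were tested, 1 was higher and 0 lower, and the median was 0.0025. Of all tested genes 3.35% were called higher and 3.19% lower. The 1 called gene was Sez6, a neuronal gene with complement control repeats, which rose from 278.5 and 272.8 CPM to 289.6 and 291.2 CPM (log2 fold change 0.075, edgeR adjusted p = 0.00684). The call was lost without WT library 2 (edgeR adjusted p = 0.105). C4b had 23.8 and 22.5 CPM in WT and 20.8 and 20.4 CPM in KO, with no overlap, and did not pass (log2 fold change -0.17 ± 0.054, adjusted p = 0.0641 in edgeR).

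Among signals that microglia read, and related genes, some were called. Of 16 tested genes 3 rose and 1 fell, where 3.35% of all tested genes were called higher and 3.19% lower. Their median log2 fold change was 0.036. A call depends on read depth as well as on fold change, and the lists differ in level. Cx3cl1, the fractalkine that neurons present to CX3CR1, rose from 744.7 and 744.4 CPM in WT to 839.9 and 827.5 CPM in KO. Its log2 fold change was 0.16 ± 0.014 (adjusted p = 7.92e-09 in edgeR). The fold change of its receptor gene Cx3cr1 was 0.11 and did not pass, and whether the fold changes of ligand and receptor differ was not tested. Cxcl12, a chemokine of vessels, meninges and neurons, rose from 55.7 and 51.7 CPM to 60.5 and 61.9 CPM (log2 fold change 0.19 ± 0.036, adjusted p = 0.00123 in edgeR).

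The transforming growth factor genes, whose signal maintains the homeostatic state, went different ways. Tgfb1 rose from 6.40 and 6.88 CPM to 9.20 and 8.05 CPM (log2 fold change 0.38 ± 0.092, adjusted p = 0.00957 in edgeR). Whether its reads came from microglia or from other cells was not tested. The Tgfb1 call was lost without WT library 1 (edgeR adjusted p = 0.0710) and without KO library 1 (0.169). Tgfb2 fell from 27.9 and 27.7 CPM to 24.1 and 23.9 CPM (log2 fold change -0.21 ± 0.048, adjusted p = 0.00561 in edgeR). Their receptor gene Tgfbr1 had 24.7 and 24.3 CPM in WT and 25.0 and 24.3 CPM in KO. Of the ligands of CSF1R, Il34 had 33.3 and 35.6 CPM in WT and 38.2 and 37.4 CPM in KO (log2 fold change 0.14 ± 0.043, adjusted p = 0.0633 in edgeR), and Csf1 had 21.7 and 22.2 CPM in WT and 20.7 and 22.995 CPM in KO.

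**Figure D4:**
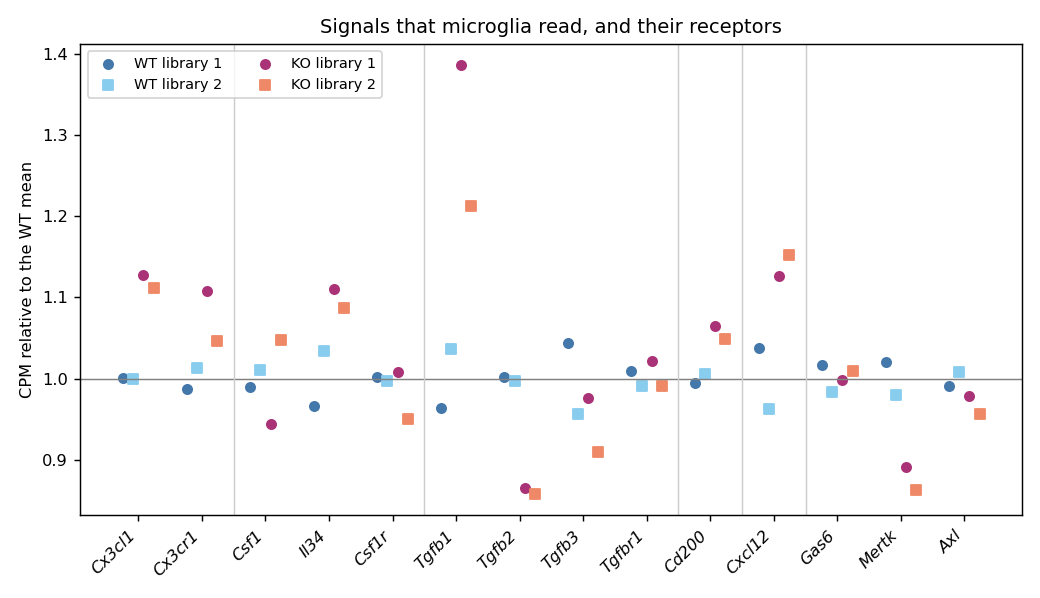
CPM of ligands and receptors in each library, divided by the WT mean of the gene; vertical lines separate pathways. Both KO libraries stand above WT for Cx3cl1, Cxcl12 and Tgfb1, which were called, and for Cx3cr1, Il34 and Cd200, which were not. They stand below WT for Tgfb2 and Mertk, which were called, and for Axl, which was not. Of all tested genes 22.8% stood above and 22.9% below in this way. Csf1r and Tgfbr1 stay near 1.

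Of 20 inflammatory cytokine and sensor genes 18 could be tested, 0 rose and 2 fell, where 3.19% of all tested genes were called lower, and the median was -0.054. Nfkbia, the inhibitor of NF-kappaB that many cell types express, fell from 30.1 and 29.1 CPM to 20.6 and 23.1 CPM (log2 fold change -0.44 ± 0.055, adjusted p = 5.08e-06 in edgeR). Ptgs2, the cyclooxygenase that neurons also induce, fell from 16.7 and 16.1 CPM to 13.5 and 13.7 CPM (log2 fold change -0.27 ± 0.064, adjusted p = 0.00910 in edgeR), a call lost without WT library 1 (edgeR adjusted p = 0.0899). Tnf had 0 to 4 reads, Il6 0 to 2 and Il1b 9 to 22 in each library.

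Genes listed as markers of blood leukocytes, which share several of the members, ranged from 0 reads to over 30 CPM. Ly6g of neutrophils and Cd3g of T cells had 0 reads in all 4 libraries. S100a8 had 12 to 32 reads and the monocyte receptor gene Ccr2 14 to 23. Genes of these lists with more reads were Vcan (2128 to 2562), Ighm (1074 to 1311), Csf3r (318 to 469) and Trbc2 (209 to 299), chosen after their values were seen. Which cells these reads came from was not tested. Of 8 monocyte, 12 neutrophil, 12 T and NK cell, and 8 B cell genes, 4, 5, 3 and 6 passed the filter. Of these edgeR called 0, with 1 monocyte gene and none of the others at an unadjusted p under 0.05. Of 7 mast cell genes 2 passed, and Kit, which neurons also express, was called lower, while Cpa3 had 2 to 6 reads. Among brain cell types 9 of 10 oligodendrocyte markers were called higher with a median of 0.074, while of 10 endothelial and mural markers 2 were higher and 0 lower with a median of 0.022. Of 10 neuronal markers 2 were higher and 0 lower, and of 14 genes that cell dissociation induces 1 was higher and 3 lower. The shares over all tested genes were 3.35% higher and 3.19% lower. The members' median of 0.025 lay between those of the astrocyte (-0.057) and oligodendrocyte lists, with no test of the difference.

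**Figure D5:**
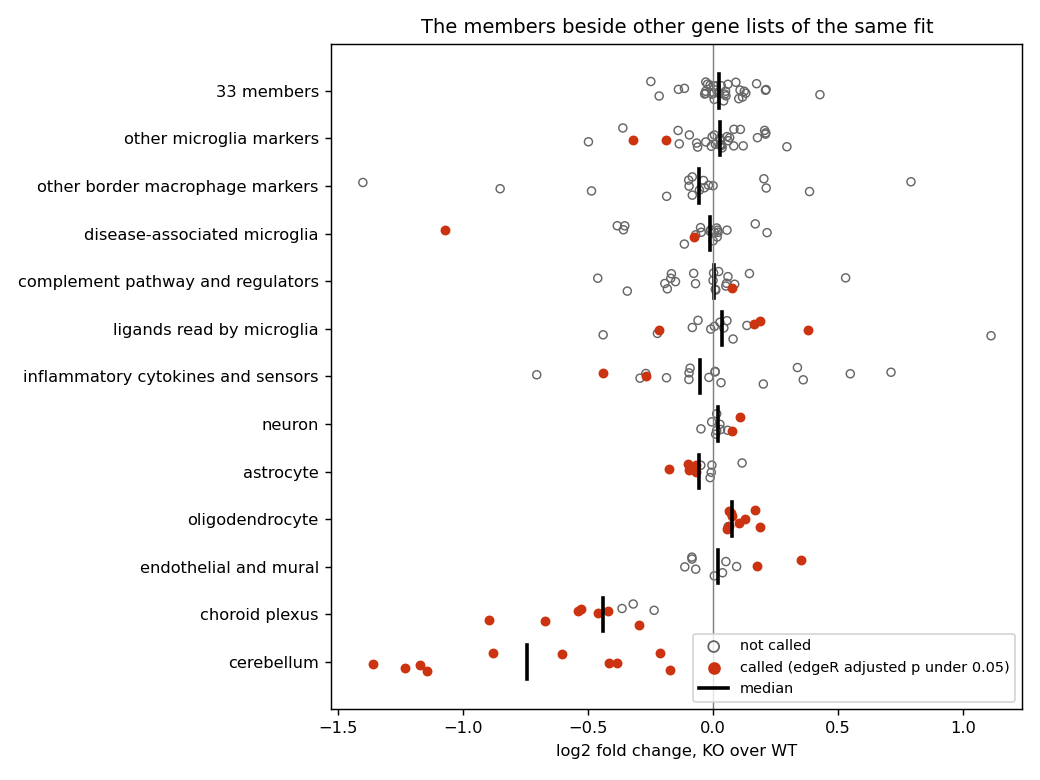
Log2 fold change, KO over WT, of the 33 members and of tested genes in 12 other lists; filled points were called by edgeR and bars are medians. No member is filled, while all 10 cerebellar and 9 of 10 oligodendrocyte markers are.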

How the data were processed

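The data are raw counts of reads per gene that the authors deposited as 1 table, with 1 column per library and no pooling. The submitters' processing notes name GRCm39 and, without roles, STAR 2.6.1c, featureCounts, FastQC and DESeq2. For strand setting, annotation release and multi-mapping reads the sources used here give nothing. Symbols came from a reference table that matched 52081 of 55414 identifiers.

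Columns were matched to samples by name. Genes were kept with filterByExpr at a minimum count of 10 (21592 genes), scaled with TMM, and tested for genotype in edgeR 4.0.16 (R 4.3.3) with glmQLFit and glmQLFTest, Benjamini-Hochberg adjusted over all tested genes and called under 0.05. CPM are relative to the TMM-scaled total. The SE is the log2 fold change over the square root of F, and intervals use the test's degrees of freedom. The procedure was tested on simulated data. CPM per kb divides by the union of exons in GENCODE M21 (GRCm38), which also gave overlaps and shared 50-base stretches. A gene with several transcripts is shorter in practice than its union. DESeq2 1.42.0, limma 3.58.1 with a prior count of 2 and the other alternatives are in the closing section. Depth limits low genes such as Pf4.

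The members and lists were chosen with earlier results of these data known. Of the 33 members, those with the 4 smallest p, the highest per kb of each role and all border macrophage genes were taken for full values, and others are also given. From other lists the called genes, or else that with the smallest p, were to be named, and some further genes were named after their values were seen. One listed symbol, Lrrc33, matched no row.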

Additional observations from a re-analysis of the deposited data

How the results depend on the processing

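The count of members higher in KO was 0 in the fit as reported and 1, each time Olfml3, with the replicate block, with no filter, with a minimum count of 50, with the dispersion set to 0, with halved counts, with limma-trend and at an adjusted p under 0.1. The count lower in KO was 0 as reported and 1, each time Fcgr3, with library size alone, with a minimum count of 50 and at an adjusted p under 0.1. With 1 library left out the count higher ranged from 0 to 1 and the count lower was 0 in all 4 cases; the lone library is then assumed to vary like the other genotype. With DESeq2 size factors, with DESeq2 and without mitochondrial and ribosomal protein genes both counts stayed at 0. The median log2 fold change of the members was 0.025 as reported, 0.015 with library size alone and 0.0191 to 0.0356 with 1 library left out, positive in every setting. Pf4 did not pass the minimum count of 50, so 32 members were tested there.

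Among named members with full values, 4 changed sign, each when 1 library was left out. With 1 library left out the log2 fold change ranged from -0.00043 (without WT library 1) to 0.098 for C1qa, from -0.25 to 0.022 (without KO library 1) for Cd163, from -0.074 to 0.014 (without KO library 2) for Csf1r and from -0.018 (without KO library 1) to 0.043 for Ctss. Mrc1 ranged from 0.00072 to 0.11, Pf4 from 0.24 to 0.65, Cx3cr1 from 0.065 to 0.15 and P2ry12 from 0.065 to 0.14. The causes were not tested. Pf4 and Ch25h got no adjusted p from DESeq2. In the 14 alternatives, applied to called genes of the other lists after the calls were seen, Cx3cl1, Cxcl12, Golm1, Mertk, Nfkbia and Tgfb2 were called every time. Differences between WT libraries and between KO libraries correlated by 0.016 across the 21592 tested genes for equal replicate numbers, so the numbers are not taken as pairs; under the block Olfml3 had an edgeR adjusted p of 0.0324.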
